A study of Homo sapiens with 8 samples.

Results

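The genes described here are 9 transcripts that p53 is known to induce or that hold back growth: CDKN1A, GADD45A, TP53INP1, MDM2, SESN1, FAS, ZMAT3, BTG2 and RRM2B. They were chosen by symbol, and every probe set annotated to 1 of these symbols and no other was taken. That gave 27 of the 54675 probe sets on the array, for 8 of the 9 genes, among 19775 genes with a probe set of their own. Each of the 8 was among the 13102 genes bright enough to be tested. No probe set carried the symbol BTG2 alone in the annotation used, so BTG2, an antiproliferative cofactor of mRNA decay, was not analysed here.

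The 8 Affymetrix arrays were made from total RNA of ALL-SIL, an established human line of T-cell acute lymphoblastic leukemia in which the homeobox oncogene TLX1 is expressed, in 4 groups of 2 arrays. In the T-cell receptor (TCR) experiment, ALL-SIL cells transduced with a lentiviral TCRα/β-GFP vector were either left without TCR activation or co-cultured over 48 h with OP9-DL1, mouse bone marrow stroma engineered to display DL1, a ligand of Notch. In the hairpin experiment, ALL-SIL cells were transduced with pLKO.1-puro particles carrying either the negative control or a hairpin against TLX1. The labels describe puromycin selection of the hairpin cells and RNA collection before apoptosis set in. By the labels all groups come from a single line, although chromosome Y and myeloid genes differ between the TCR groups, with values given beside the co-culture results. The knockdown rests on a single hairpin construct, and the cells without TCR activation differ from the activated ones by the stroma as well as by the stimulus. Whether the 2 arrays of a group stand for separate cultures is not stated, and p-values here measure no more than the array-to-array spread, which may be technical.

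As background, p53 is a transcription factor that DNA damage and oncogene stress stabilise. It binds a response element made of a pair of adjacent half-sites and switches on genes that stop the cell cycle, repair DNA, limit oxidative stress or start apoptosis. MDM2 is both a target and the ubiquitin ligase that removes p53, which closes a feedback loop. Several of these genes also answer to other inputs: CDKN1A and GADD45A, for example, are induced through growth factor, stress kinase and FOXO signals without p53. In thymocytes and T-cell leukemia the pathway is known for limiting the expansion of cells with damaged antigen receptor loci.

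Promoter sequence is shown for the members in which it carries a recognisable p53 element or, for CDKN1A, the member with the largest difference after co-culture, GC boxes. Windows of the 250 bases before RefSeq transcript starts (GRCh38.p14) were searched for a p53 site of 20 bases that kept the core C and G of both half-sites and differed from the consensus at no more than 3 of the other 16 positions. This limit was chosen after the sequences were seen. A window was held here for 6 of the 9 genes, 14 windows in all, and 4 windows of 3 genes had such a site, against 0.914% of 35116 windows of all genes. The stretches below run 5′ to 3′ on the strand of the gene, with the p53 site in capitals. They lie at chr12:68808893-68808972 on the plus strand for MDM2, at chr10:88991279-88991358 on the plus strand for FAS and at chr6:109008989-109009067 on the minus strand for SESN1. Each site is upstream of a transcript start and downstream of another start of the same gene.
MDM2: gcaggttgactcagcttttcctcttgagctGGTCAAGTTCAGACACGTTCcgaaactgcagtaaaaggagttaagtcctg
FAS: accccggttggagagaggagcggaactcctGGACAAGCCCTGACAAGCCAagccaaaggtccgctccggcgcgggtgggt
SESN1: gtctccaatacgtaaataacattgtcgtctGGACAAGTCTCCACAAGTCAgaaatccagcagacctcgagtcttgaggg

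The MDM2 and FAS sites differed from the consensus at 2 positions each and the SESN1 site at 3. The CDKN1A window at chr6:36678464-36678713, plus strand, held no such site. It is printed with its 4 GC boxes (GGGCGG, searched on both strands, forward matches in capitals; the last pair overlaps), a motif found in 42.6% of all windows.
CDKN1A: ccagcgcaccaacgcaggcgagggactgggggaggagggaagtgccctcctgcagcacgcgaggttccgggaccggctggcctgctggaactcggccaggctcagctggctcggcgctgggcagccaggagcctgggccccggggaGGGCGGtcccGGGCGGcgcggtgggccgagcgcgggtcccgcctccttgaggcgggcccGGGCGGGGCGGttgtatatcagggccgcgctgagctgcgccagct

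GC boxes stood in 12 of the 14 member windows, CCAAT in 8 (32% of all windows) and TATAAA in 0 (10.7% of all windows). A match is a run of letters and not a measured binding site, and p53 elements farther from a start, as are known for CDKN1A, lie outside these windows. Of the 10506 tested genes with a window, 127 (1.21%) held a p53 site by this rule. Their median log2 change was 0.02 after co-culture and -0.02 with the TLX1 hairpin, against 0.02 and -0.00 over the 10506. In either comparison 0 of the 127 passed the threshold, where 0.618% and 0.0916% of all genes did. With shares that low, the 0 does not set these genes apart.

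Values are log2 signals, and a gene's level is that of its brightest kept probe set, so levels of different genes are not set against each other. Changes were tested with limma over all genes in 1 model of the 4 groups, with a threshold of 0.05 on the Benjamini-Hochberg adjusted p. Replicate arrays correlated at 0.997 to 0.998 for the TCR groups and 0.986 to 0.993 for the hairpin groups. The median SD over genes was 0.064 without TCR activation and 0.042 after it, but 0.174 with the control hairpin and 0.112 with the TLX1 hairpin. All 14 T-lineage markers lay above the array median on every array. TLX1, the target of the hairpin, read 8.66 and 8.27 with the control hairpin against 7.98 and 7.88 with its own, a difference of -0.53 that did not pass (adjusted p = 0.334), so the knockdown is not shown by this test.

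After 48 h on OP9-DL1, CDKN1A, GADD45A and TP53INP1 read lower by 0.53 to 0.84 on the log2 scale, whereas MDM2, SESN1 and FAS differed from the cells without co-culture by less than 0.1. In the 4-group model 0 of the 8 members passed the threshold, where 0.618% of all genes did. Before adjustment 3 of the 8, those just named, had p under 0.05 and a lower level, against 3.43% of all genes, and 0 had such a p and a higher level (3.98% of all genes). A fit to these 4 arrays alone, whose spread is the smaller, passed 3 of the 8 as lower, the same 3 genes, where it passed 3.05% of all genes as lower, 3.56% as higher and 6.61% in either direction. For 5 of the 8 both arrays after co-culture lay below both arrays without it, which was so for 25.4% of all genes, and for 0 both lay above (32% of all genes). The median change of the members was -0.24, against 0.02 over all genes, and it was -0.13 without the first and -0.41 without the second array of the cells without co-culture.

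CDKN1A encodes p21, the inhibitor of cyclin-dependent kinases that holds cells before S phase. It read 8.53 and 8.73 without co-culture and 7.83 and 7.76 after it, so both activated arrays were lower and the groups did not overlap. The change was -0.84 (SE 0.21, 95% interval -1.33 to -0.34), a signal 1.79-fold lower, with adjusted p = 0.271 in the 4-group limma model. It passed in the limma fit of the 4 arrays alone (adjusted p = 0.0151). In the 4-group model with 1 array left out, the CDKN1A change ranged from -0.94 to -0.74.

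GADD45A encodes a stress protein that binds PCNA and p21 and takes part in the G2 checkpoint. It read 10.80 and 11.04 without co-culture against 10.26 and 10.13 after it, again with no overlap. The change of -0.73 (SE 0.15, interval -1.08 to -0.38) had adjusted p = 0.138 in the 4-group limma model and 0.0264 in the fit of 4 arrays. With 1 array left out, the 4-group limma model gave changes from -0.85 to -0.61.

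TP53INP1 encodes a nuclear and autophagosomal protein that promotes p53 phosphorylation and cell death. Its brightest probe set read 8.93 and 8.72 without co-culture and 8.27 and 8.33 after it, a change of -0.53 (SE 0.15). The adjusted p was 0.341 in the 4-group limma model and 0.0345 in the fit of 4 arrays. The gene's dimmer probe sets did not share the direction, at 0.18 and 0.10, and with its kept probe sets averaged the change was -0.21 (adjusted p = 0.832, limma).

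**Figure D1:**
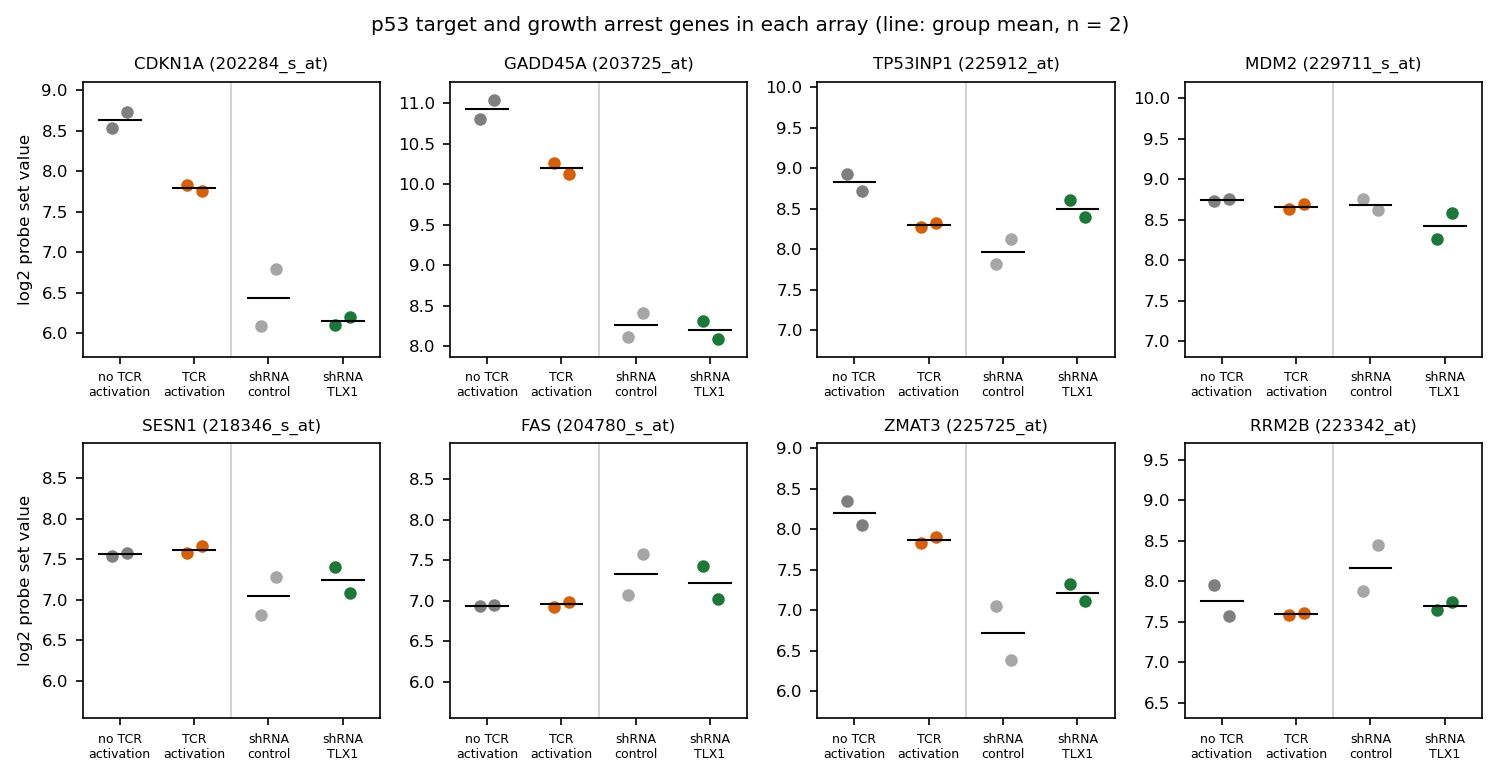
Log2 level of each of the 8 measured genes on each array, by group; each point is 1 array and each bar the mean of its 2 arrays. CDKN1A and GADD45A are lower after co-culture and lie far higher in all 4 arrays of the TCR experiment than in the hairpin arrays. The MDM2 probe set shown, the brightest of that gene, stays between 8.26 and 8.75 throughout.

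ZMAT3, a zinc finger protein that binds RNA and acts on splicing and mRNA stability, read 8.35 and 8.05 without co-culture and 7.84 and 7.91 after it. Both activated arrays were lower, but the change of -0.33 did not pass in either limma fit (adjusted p = 0.142 in the fit of 4 arrays). Its 4 kept probe sets all lay lower with no overlap between groups, by 0.26 to 0.38. RRM2B, the p53-inducible subunit of ribonucleotide reductase, read 7.95 and 7.57 against 7.58 and 7.61, so the groups overlapped, and its change of -0.16 became 0.03 when the first array without co-culture was left out.

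The feedback gene and the remaining effectors moved little. MDM2 read 8.73 and 8.75 without co-culture and 8.63 and 8.69 after it, a difference of -0.08. SESN1, a sestrin that restrains mTORC1 and oxidative stress, read 7.54 and 7.58 against 7.57 and 7.66. FAS, the death receptor of the CD95 ligand, read 6.93 and 6.94 against 6.92 and 6.99. These are the 3 members with a p53 site in a promoter window, and of the 5 measured members with a window the others are CDKN1A and ZMAT3. No window was held for GADD45A, TP53INP1 or RRM2B. The SESN1 site counts only at the limit of 3 positions, chosen after the sequences were seen. Whether a site bears on these changes was not tested.

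**Figure D2:**
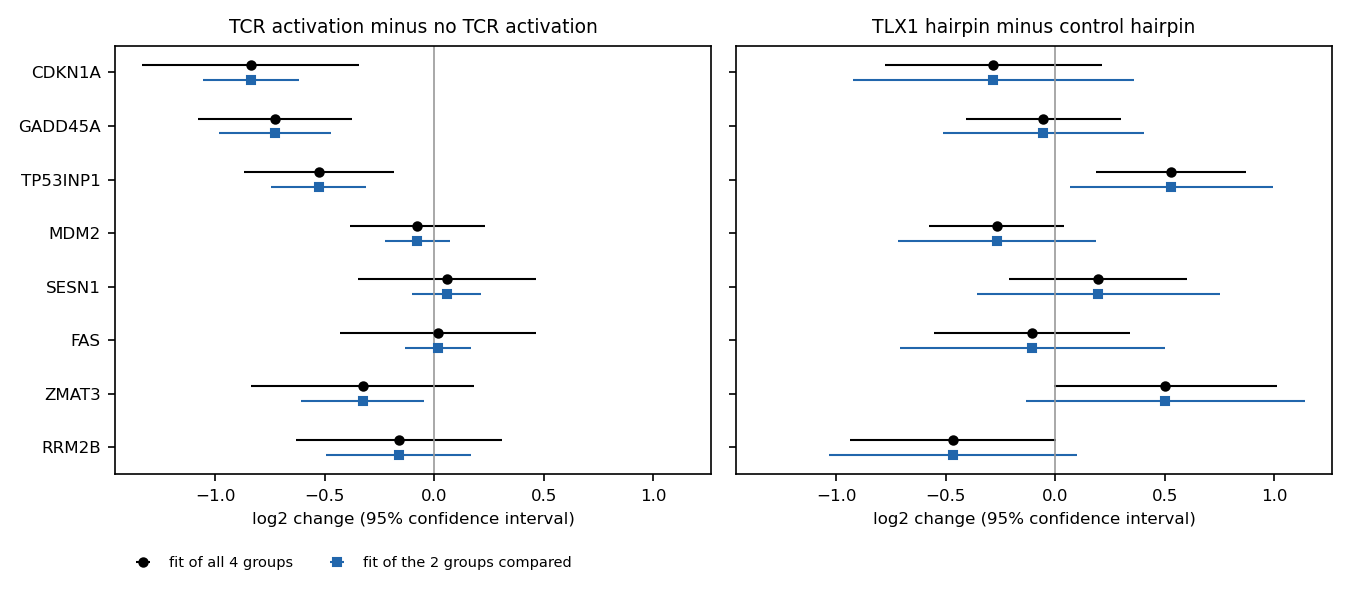
Log2 change of each measured gene with its 95% confidence interval, after TCR activation on OP9-DL1 and with the TLX1 hairpin, each against its own control; black circles are the fit of all 4 groups and blue squares the fit of the 2 groups compared. In both fits the intervals of CDKN1A, GADD45A and TP53INP1 lie below 0 after co-culture, and that of TP53INP1 lies above 0 with the hairpin.

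Other features of the co-culture arrays moved with this comparison. Of 12 tested granulocyte and myeloid markers 9 rose, but 4 of those 9 had passed the brightness filter only through the co-culture arrays; of the 8 kept otherwise 5 rose. The mean level of the 18 with a probe set went from 4.92 on both arrays to 6.27 and 6.30; 5 of the 18 lay below the array median on every array. Of 16 tested chromosome Y genes 6 fell, with a median log2 change of -4.37 among those 6. Whether both TCR groups hold the same cells was not tested, and a difference between the cells cannot be told apart from co-culture in the values of the members. Stromal markers had means of 5.67 and 5.91 without co-culture and 5.91 and 5.64 after it, with 8 of 20 below the median on every array. The part of these differences in the values of CDKN1A, GADD45A and TP53INP1 was not tested. In bulk RNA, fewer cells that express a gene and less RNA per cell cannot be told apart.

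With the TLX1 hairpin, no member passed the threshold: 0 of 8, where 0.0916% of all genes passed. TP53INP1 was the member with p under 0.05 before adjustment (1 of 8 as higher, against 4.21% of all genes, and 0 as lower, against 4.77%), and a fit to the 4 hairpin arrays alone passed 0 genes of any kind. By sign 3 members were higher and 5 lower: 2 were higher with no overlap between groups (14.1% of all genes) and 2 were lower (14.6% of all genes). The median change was -0.08, against -0.00 over all genes, and its sign turned with single arrays: it was 0.12 without the second control hairpin array, 0.08 without the second TLX1 hairpin array and -0.20 without the first control array.

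TP53INP1 read 7.82 and 8.13 with the control hairpin and 8.61 and 8.39 with the TLX1 hairpin, so both TLX1 hairpin arrays were higher. The change of 0.53 (interval 0.19 to 0.87) had adjusted p = 0.335 in the limma model. ZMAT3 was also higher, at 7.32 and 7.11 against 7.05 and 6.38, a change of 0.50 (adjusted p = 0.559, limma). All 5 of its probe sets were higher by sign, 2 of them with no overlap.

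RRM2B read 7.88 and 8.45 with the control hairpin and 7.64 and 7.75 with the TLX1 hairpin, a change of -0.47 (adjusted p = 0.558, limma). MDM2 read 8.75 and 8.62 against 8.26 and 8.58, a change of -0.27, and its other bright probe set differed by -0.36 (adjusted p = 0.422 over all probe sets, limma). RRM2B and MDM2 were the 2 members lower with no overlap.

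CDKN1A read 6.09 and 6.79 with the control hairpin and 6.11 and 6.20 with the TLX1 hairpin. Both TLX1 hairpin arrays lay within the range of the control arrays, and the change of -0.28 had adjusted p = 0.750. GADD45A (8.11 and 8.40 against 8.31 and 8.09), SESN1 (6.81 and 7.27 against 7.40 and 7.08) and FAS (7.07 and 7.57 against 7.42 and 7.01) also overlapped between groups, with changes of -0.05, 0.20 and -0.10.

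These values rest on how far the 2 control hairpin arrays lay apart. The second control array was higher than the first in 6 of the 8 members, with a median difference of 0.39, where 55.7% of all genes were higher with a median of 0.05. CDKN1A differed by 0.70 between them, RRM2B by 0.57, FAS by 0.50 and SESN1 by 0.47, while ZMAT3 was lower by 0.67 in the second array. The same array carried more DDB2, a p53-induced damage sensor, at 8.88 against 7.81, but less TIGAR, also induced by p53, at 5.38 against 6.39. Of 50 other tested genes induced by p53, 28 (56%) were higher in the second control array, with a median difference of 0.09, near the share of all genes. Without the first control array, 3 members passed in the 4-group limma model: CDKN1A at -0.63 (adjusted p = 0.0197), RRM2B at -0.75 (0.0264) and ZMAT3 at 0.84 (0.0182), while the number of all genes past the threshold went from 12 to 1796. Without the second control array 0 members passed, and the CDKN1A change was 0.07.

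For the brightest TP53INP1 probe set, lower after co-culture and higher with the hairpin without passing in either, the difference of the changes was -1.06 (interval -1.54 to -0.57), with adjusted p = 0.139 in the limma model. With 1 array left out, this difference ranged from -1.21 to -0.90. The gene's other probe sets were higher by sign in both comparisons, and with the kept ones averaged the difference was -0.55 (adjusted p = 0.394, limma). In the 4-group limma model 0 of 8 members passed this test of the difference, where 0.382% of all genes did, and 3 of 8 had an unadjusted p under 0.05 as lower, against 4.09% of all genes, and 0 as higher (4.65%). The 3 were TP53INP1, GADD45A at -0.67 (adjusted p = 0.393, limma) and ZMAT3 at -0.83 (0.509). CDKN1A, at -0.56 (adjusted p = 0.673, limma), was not among them.

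In the limma fit over all probe sets 0 of the 27 passed for TCR activation, for the hairpin or for the difference, where 0.402%, 0.0439% and 0.225% of all probe sets did. Of the 27, 14 were lower with no overlap after co-culture, against 22.2% of all probe sets, and 2 were higher (23% of all). Of those 14, MDM2 gave 6, with a change as small as -0.04, and ZMAT3 gave 4. Probe sets of 1 gene are not separate genes, so the count does not show a fall across the members. With the TLX1 hairpin 4 were higher and 4 lower, against 14.7% and 15.4%. MDM2 had 10 probe sets, of which 5 were kept as bright enough, FAS 5 and ZMAT3 5. The probe sets of MDM2 ranged from -0.32 to 0.13 after co-culture, the lowest being one that lay below the array median on every array. Probe sets whose name ends in x_at can also bind other transcripts, and 5 of the 27 are of that kind.

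**Figure D3:**
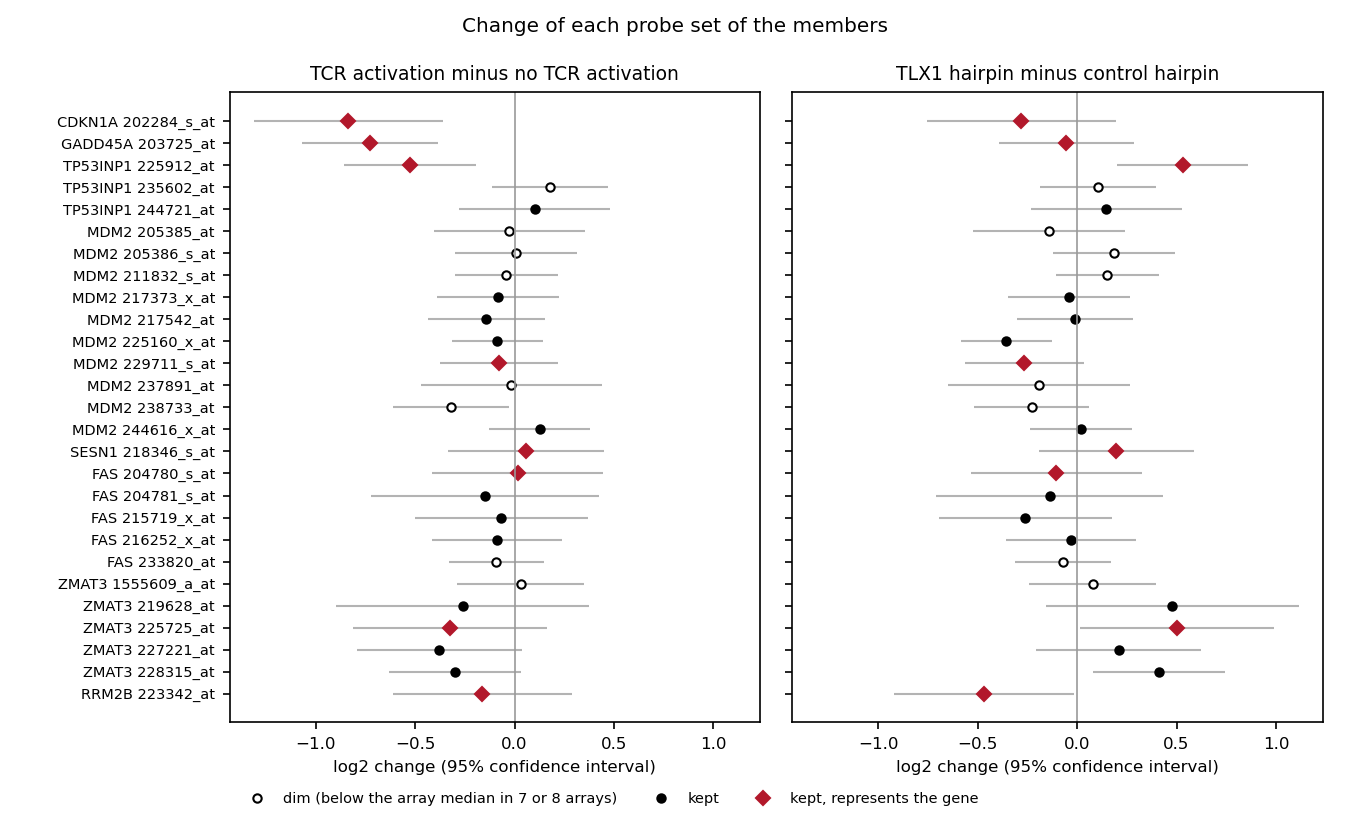
Log2 change of each of the 27 probe sets with its 95% confidence interval from the fit over all probe sets; open circles are probe sets too dim to represent a gene, filled circles kept ones, and diamonds those that represent their gene. The 4 kept ZMAT3 probe sets lie left of 0 after co-culture and right of 0 with the TLX1 hairpin.

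The rest of the pathway gives the setting for these genes. Of 60 other genes induced by p53, 50 were tested, and their median change after co-culture was 0.02. Before adjustment 2 were higher and 3 lower at p under 0.05 (limma), against 3.98% and 3.43% of all genes. After adjustment 1 passed as higher and 0 as lower, where 0.618% of all genes passed in either direction. The one that passed was PERP, a desmosomal membrane protein of the p53 apoptosis programme, from 3.52 and 3.65 to 5.43 and 5.69, a change of 1.98 (adjusted p = 0.0011, limma). PERP lay below the array median without co-culture and was tested only through the co-culture arrays in which it was high, and of the 49 genes kept otherwise 0 rose. NINJ1, a membrane protein that ruptures dying cells, read 8.25 and 8.44 without co-culture and 7.47 and 7.53 after it, a change of -0.85 (adjusted p = 0.0647 in the 4-group limma model and 0.0129 in the fit of 4 arrays). The fit of 4 arrays passed 2 of the 50 as higher and 2 as lower, against 3.56% and 3.05% of all genes. CD82, a tetraspanin, differed by -0.44 and TNFRSF10A, a TRAIL receptor, by 0.36, and neither passed. With the TLX1 hairpin 0 of the 50 passed (limma). Before adjustment 1 was higher and 2 lower at p under 0.05, against 4.21% and 4.77% of all genes. DDB2 read 7.44 and 7.25 with the TLX1 hairpin, and TIGAR, a phosphatase that slows glycolysis, read 6.54 and 6.79 against 6.39 and 5.38 in the control arrays.

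Genes that act on p53 were described by 36 symbols, of which 31 were tested, and 0 passed in either comparison of the limma model. Before adjustment 1 was higher and 2 lower at p under 0.05 after co-culture, against 3.98% and 3.43% of all genes. With the hairpin the counts were 1 and 1, against 4.21% and 4.77%. MDM4, the partner of MDM2 that masks the p53 activation domain, read 10.66 and 10.80 without co-culture and 10.10 and 10.24 after it, a change of -0.56 (adjusted p = 0.360 in the 4-group limma model and 0.0294 in the fit of 4 arrays). TOPORS, a ubiquitin and SUMO ligase of p53, differed by -0.34 and PRMT5, the arginine methyltransferase, by 0.48, both past the threshold in the fit of 4 arrays (0.0449 and 0.0195) and not in the 4-group model. The fit of 4 arrays passed 1 of the 31 as higher and 2 as lower, against 3.56% and 3.05% of all genes. With the TLX1 hairpin the kinase HIPK2 differed by 0.87 and the lysine methyltransferase KMT5A by -0.34, and neither passed.

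Of 21 paralogs of the members 17 were tested, and 0 passed in either comparison of the 4-group limma model. Before adjustment 1 was higher and 4 lower at p under 0.05 after co-culture, against 3.98% and 3.43% of all genes. With the hairpin the counts were 1 and 1, against 4.21% and 4.77%. The lists share genes: MDM4, among the genes that act on p53, and TNFRSF10A, among those induced by p53, are counted here too. GADD45B, a relative of GADD45A induced by NF-kB and TGF-beta signals, read 8.11 and 9.18 without co-culture and 7.46 and 7.68 after it, a change of -1.07 (adjusted p = 0.620, limma) with the arrays without co-culture 1.08 apart. TOB1, an antiproliferative relative of BTG2, was lower in both comparisons: 11.00 and 11.02 against 10.58 and 10.47 after co-culture (-0.49, adjusted p = 0.638, and 0.0245 in the fit of 4 arrays, limma), and 9.35 and 9.94 against 8.91 and 9.19 with the hairpin (-0.60, adjusted p = 0.412, limma). The fit of the 4 TCR arrays passed 0 of the 17 as higher and 2 as lower, against 3.56% and 3.05% of all genes.

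The genes repressed through p53, p21 and the DREAM complex are cell-cycle genes such as MYBL2, TTK, CENPA and PLK1. All 31 with a probe set were tested of 32 listed, and 0 passed in either comparison (limma). Before adjustment 3 were higher at p under 0.05 after co-culture and 0 lower, against 3.98% and 3.43% of all genes. With the hairpin 0 differed, against 4.21% of all genes as higher and 4.77% as lower. After co-culture 24 of the 31 were higher by sign, against 7210 of the 13102 genes tested, with a median change of 0.15. MYBL2, a transcription factor of the S and G2 phases, read 7.61 and 7.66 without co-culture and 8.08 and 8.06 after it, a change of 0.43 (adjusted p = 0.206 in the 4-group limma model and 0.0241 in the fit of 4 arrays). The fit of 4 arrays passed 1 of the 31 as higher and 0 as lower, against 3.56% and 3.05% of all genes. With the hairpin the list's median was -0.02.

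FAS signals through a small set of adaptors and caspases, of which 8 of 12 listed were tested and 0 passed in either comparison (limma). Before adjustment 0 had p under 0.05 after co-culture and 1 was lower with the hairpin, against 4.77% of all genes. With the TLX1 hairpin all 8 were lower by sign, where 6609 of the 13102 genes tested were. Their median was -0.17, against -0.00 over all genes, and they ranged from -0.27 for FAF1, a FAS-binding adaptor, to -0.05. FADD, the adaptor between FAS and caspase-8, read 8.77 and 8.71 with the control hairpin and 8.57 and 8.49 with the TLX1 hairpin. After co-culture 4 were higher and 4 lower, and CASP8 differed by -0.30.

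GADD45A and CDKN1A differed more between the experiments than within either. Without co-culture GADD45A was 2.67 above its level with the control hairpin and CDKN1A 2.20 above, where 1.32% of all genes differed by at least 2 in this direction and the median of all genes was 0.16. ZMAT3 was 1.48 above (8.87% of all genes differed by at least 1), TP53INP1 0.85 and SESN1 0.52. The ZMAT3 value depends on the probe set. Another kept one averaged 8.85 without co-culture and 5.91 with the control hairpin, a wider gap than those of GADD45A and CDKN1A. MDM2 differed by 0.05, and FAS and RRM2B were lower by 0.39 and 0.40 in the TCR experiment. The MDM2 value is that of its brightest probe set, and other kept ones disagreed. Its other bright one read 8.66 to 8.79 in the TCR experiment and 7.68 to 8.09 in the hairpin experiment, while a dimmer one read 4.37 to 4.49 against 5.56 to 5.93. Both of these MDM2 probe sets are of the x_at kind, which can also bind other transcripts. For CDKN1A, GADD45A, ZMAT3 and SESN1 all 4 arrays of the TCR experiment lay above all 4 hairpin arrays, which was so for 36.9% of all genes. For the brightest FAS probe set all 4 lay below (17.8% of all genes), but the kept FAS probe sets disagreed. The next brightest read 6.86 to 7.17 in the TCR experiment, above 5.93 to 6.74 in the hairpin experiment. The remaining kept ones, both of the x_at kind, lay lower in the TCR experiment. RNA measures were split the same way: the actin 3′ minus 5′ signal was 2.30 to 2.71 in the TCR experiment and 0.57 to 0.83 in the hairpin experiment, and 18S ribosomal RNA read 12.0 to 12.2 against 8.2 to 9.0. Experiment, vector and RNA quality cannot be told apart in these levels.

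Likeness to each member was measured as Pearson's r over the 8 arrays after each value was centred on the mean of its own experiment. This is a description over 8 arrays that share 2 experiments, with 13102 genes searched. CDKN1A and GADD45A were alike among the members, at 0.911, and SESN1 and MDM2 were opposite, at -0.81. The most like other genes were SPATA7 (0.991) and AFF4 (0.990) for CDKN1A, PARP8 (0.978) and CDK13 (0.976) for GADD45A, and C2CD5 (0.978) and TMCC1 (0.977) for TP53INP1. For MDM2 they were MTA3 and PITRM1, for SESN1 ZNF683 and ZNF219, for FAS MACROH2A2 and ZNF252P, for ZMAT3 KIFAP3 and TMT1A, and for RRM2B OPN3 and DNAJB5, with r from 0.966 to 0.989. AFF4 differed by -0.26 after co-culture, where CDKN1A differed by -0.84.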

How the data were processed

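The deposited values are log2 signals per probe set on 8 arrays; the submitters' processing notes name RMA, affy and R 2.9.0, so the authors summarised probes by RMA. Other RMA settings and any genome build are not given in the sources used here. RMA brings the arrays to a common distribution, so a shift of all genes would not show, and the number of arrays limits the precision. Groups were taken from the sample titles. Probe sets that exceeded the median of their array on 2 or more of the 8 arrays were kept, and the brightest kept one on average stood for its gene, for 13102 genes. Of the probe sets, 41097 had 1 symbol in the platform annotation, 1801 several and 11777 none. The test was limma 3.58.1 in R 4.3.3 (lmFit, eBayes, 4 group means, Benjamini-Hochberg over all genes), checked on simulated data. Every member was described with all its probe sets, beside the up to 4 genes per list and comparison with the smallest p, the 2 genes most like each member, and TLX1. The members and lists were chosen with earlier results of these data known. Alternatives were a fit of 2 groups, array weights, filters, averaged probe sets and leaving out each array. Replicate numbers were not used as pairs, since no label ties them to a shared culture or day. Promoter windows come from RefSeq.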

Additional observations from a re-analysis of the deposited data

How the results depend on the processing

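For TCR activation 81 genes passed in the 4-group model, 25 under the stricter filter, 866 in the fit of 2 groups, 1350 with array weights and 29 to 217 when 1 array was left out. For the TLX1 hairpin 12 passed, against 0 in the fit of 2 groups, 1 with array weights and 0 to 1796 with 1 array left out, the last without the first control hairpin array. For the difference of changes 50 passed, against 25 under the stricter filter and 14 to 908 with 1 array left out. Members past the threshold went from 0 to 3 after TCR activation in the fit of 2 groups and with array weights, and ranged over 0 to 2 with 1 array left out, over 0 to 3 for the hairpin and over 0 to 2 for the difference. Probe sets of the members past the threshold went from 0 to 1 in the fit of 2 groups and to 3 with array weights, and ranged over 0 to 1 for TCR activation and 0 to 4 for the hairpin with 1 array left out. The cause was not tested. No called result reversed. In the fits of 2 groups, which were added with 1 array left out after the data were seen, 43 to 146 genes passed for TCR activation (145 without the first array without co-culture) and 0 to 161 for the hairpin; CDKN1A alone of the members passed, without the first array without co-culture (adjusted p = 0.0426, limma). A lone array was assumed to vary like the other groups.

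The differences between replicate numbers correlated over genes at -0.14 between the TCR groups and at 0.35 between the hairpin groups, where same-numbered arrays thus deviated together. With 2 numbers per experiment and no label on their origin, they were not taken as pairs. With the replicate number as a block 73 genes passed for TCR activation, 9 for the hairpin and 59 for the difference, with 0 members. With the numbers crossed in the TCR experiment, an alternative added after seeing the data, 71 genes passed.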
